A study of Mus musculus with 14 samples.

Results

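The cytosolic ribosomal protein genes measured here are the genes with symbols of the form Rpl or Rps plus a number, together with Rplp0 and Rpsa, that the annotation of the mouse MG-U74Av2 oligonucleotide array names alone on a probe set. A probe set is a group of short oligonucleotides that together report 1 transcript. The brightest probe set stood for each gene. This gave 34 genes of the 8251 genes that the array names alone on a probe set, 17 of the small and 17 of the large ribosomal subunit. They have 47 such probe sets, and 9 of the genes have more than 1. A further 37 probe sets name a ribosomal protein gene together with other genes, and these were left out of the set. The genes were chosen by name, and the probe set that stands for a gene by its mean intensity over all arrays.

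RNA of transplanted mouse hearts was hybridised to 14 arrays, and each array is read here as 1 heart. Rejecting allografts (Balb/c hearts in C57/BL6 recipients, with no treatment named in the labels) were taken at day 7 after transplantation (n = 3). Tolerizing allografts, the same strain pair treated with anti-CD80/86 monoclonal antibodies, agents that keep T cells from receiving their second activating signal through CD28, were taken at day 7 (n = 3) and at day 70 (n = 3). Isografts (C57/BL6 hearts in C57/BL6 recipients) were taken at day 7 (n = 3) and at day 70 (n = 2). Every allograft heart carries the Balb/c genome and every isograft heart the C57/BL6 genome, so donor strain and the response to an allograft cannot be told apart in any comparison of the 2 kinds of graft. The labels give neither the age nor the sex of the mice and do not say whether the replicates of a group came from separate operations, so the p-values measure only the spread between these hearts.

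Cytosolic ribosomes translate the mRNAs of the nucleus. Each subunit is a complex of ribosomal RNA and ribosomal proteins, and cells make nearly all of these proteins in matched amounts. Their mRNAs are abundant in all tissues, are short, and begin with a run of pyrimidines, the terminal oligopyrimidine (TOP) tract, through which the mTOR pathway controls their translation. In the heart, total protein synthesis and ribosome content rise when cardiomyocytes grow, and activated leukocytes, which enter a graft, also make many ribosomes.

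The letters around the annotated start sites of the genes that the results below turn on are shown so that pyrimidine words can be compared between them. A TOP tract stands at the first base of the mRNA, so a word elsewhere in the window is not itself such a tract. A window without either word does not show that the mRNA lacks one. RefSeq (mouse build GRCm38.p6) gave a start-site window for 28 of the 34 genes. The 30 bases printed are the last 10 before the annotated start and the 20 that follow, in lower case and 5′ to 3′ on the gene's strand, with the pyrimidine words CTTTC and CTCTT in capitals. Rpl13a, the gene that was higher in rejecting grafts (chr7:45128726-45128755, minus strand), holds CTTTC. Rpl22, the gene that was lower (chr4:152324426-152324455, plus strand, and a second start at chr4:152325716-152325745), holds neither word. Rpl7a (chr2:26910797-26910826, plus strand), Rps10 (chr17:27635225-27635254, minus strand) and Rps18 (chr17:33955646-33955675, minus strand) are shown as bright genes that hold a word, and Rplp0 (chr5:115559457-115559486, plus strand) as a bright gene whose window holds none.
Rpl13a: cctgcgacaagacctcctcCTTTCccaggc
Rpl22, first start: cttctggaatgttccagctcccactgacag
Rpl22, second start: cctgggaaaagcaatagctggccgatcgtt
Rpl7a: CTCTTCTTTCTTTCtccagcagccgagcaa
Rps10: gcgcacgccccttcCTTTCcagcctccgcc
Rps18: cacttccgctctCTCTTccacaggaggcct
Rplp0: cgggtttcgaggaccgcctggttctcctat

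One of the 2 words, which can overlap each other, stood on the sense strand in this window in 8 of the 28 genes (28.6%), against 8.41% of the 27025 genes with a window. In the whole windows, which reach from 250 bases before to 50 after the start and were searched on both strands, CCGGAAG, a core bound by ETS factors, was found in 12 of 28 genes (42.9%), against 9.93% of all genes. AAGATGG, the core of the YY1 motif, was found in 7 (25%), against 7.28%. GGGCGG, the Sp1 core, was found in 17 (60.7%), against 38.2%. TATAAA was found in 4 (14.3%), against 15.7%. Where a gene has several annotated starts, a match at any of them was counted, and a match is a description of letters only.

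The values are the deposited signal intensities on a linear scale. The trimmed mean of every array, with 2% cut at either end, lay at 100.06 to 100.07, so a value is relative to the rest of its array. Medians were 38.2 to 45.65, and 71.88% to 78.74% of the probe sets lay above 11, the floor used here and the 25th percentile of all values. Of the 34 genes, 25 were above the floor on all 14 arrays, 8 on 3 to 13 arrays and 1, Rps27l, on fewer than 3, so that 33 were tested. Rps27l, a paralog of Rps27 known as a p53 target, read 1.0 to 9.3 on all arrays and is not described further.

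The brightness of the probe sets covered a wide range. After the values had been seen, the genes were split into 17 with a mean intensity of 1000 or more over all arrays (means of 1164 to 7175), 5 of 100 to 1000 and 12 under 100 (means of 3.136 to 71.83). Brightness depends on the probes as well as on the transcript, so it gives no order of abundance among the genes. The dim class holds genes such as Rps14, Rps15, Rps20, Rpl32 and Rpl39, which every cell uses. For these probe sets a value near the floor says little about the transcript.

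**Figure D1:**
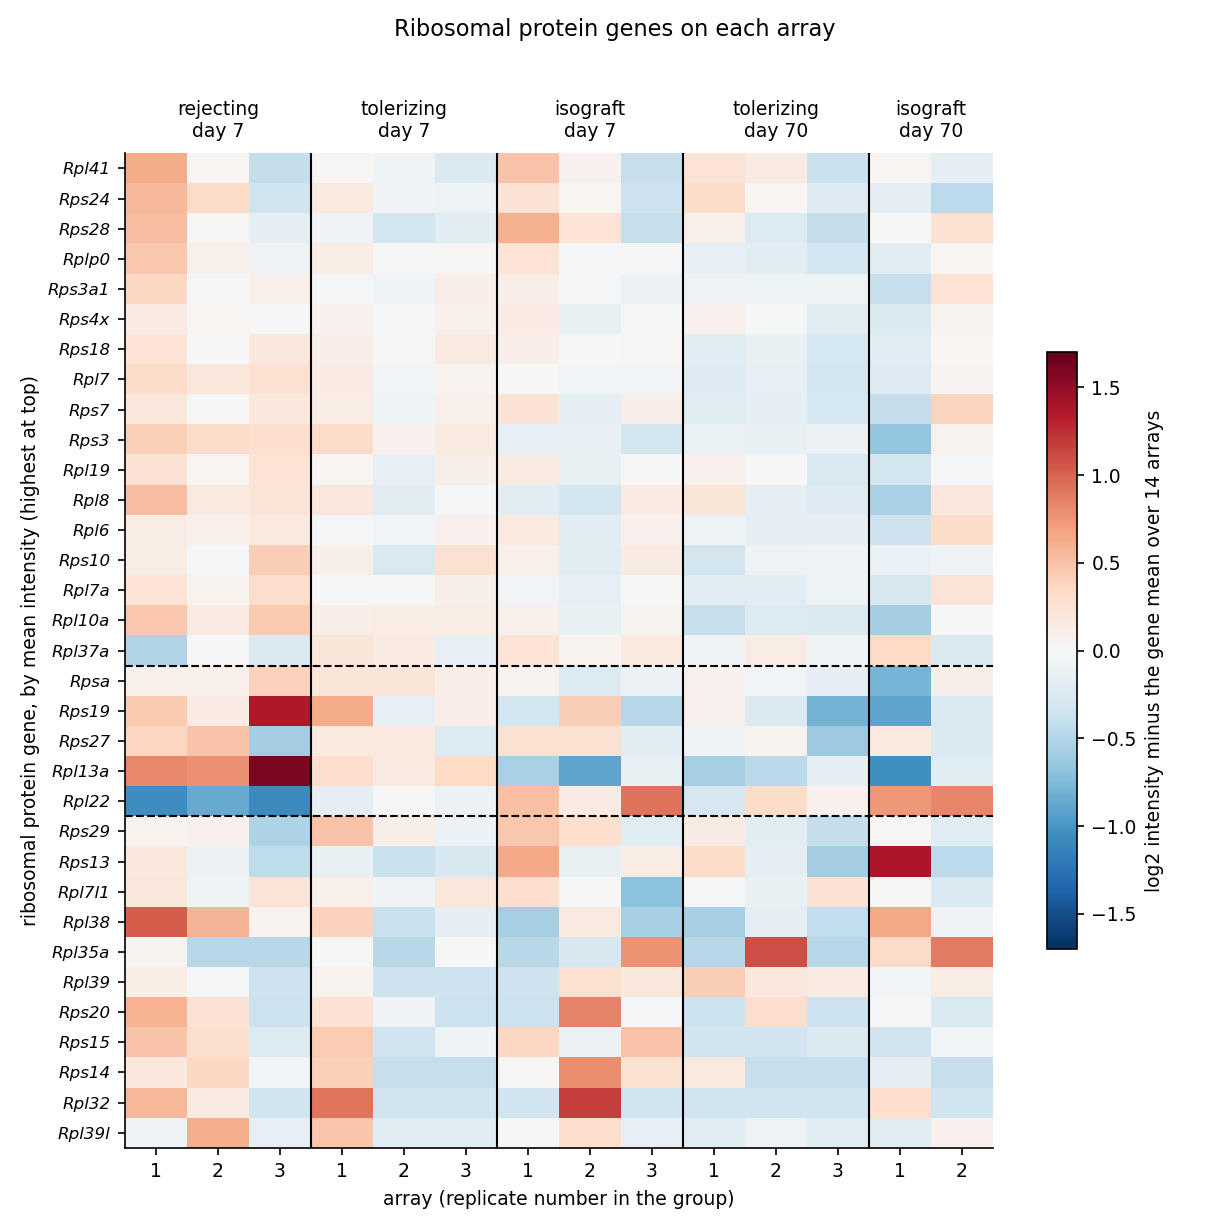
Heat map of the 33 tested ribosomal protein genes (rows, by mean intensity) on the 14 arrays (columns, by group), coloured by log2 intensity minus the gene's own mean over all arrays. Dashed lines part the 17 genes of mean 1000 or more, the 5 of 100 to 1000 and the 11 tested ones under 100; the strongest colours among the upper 22 genes are those of Rpl13a, Rpl22 and Rps19.

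The 17 bright genes varied little over the whole study. Their median standard deviation of log2 intensity over the 14 arrays was 0.20, against 0.52 for all 311 probe sets of mean 1000 or more. The lowest was 0.11 for Rps4x, the X-linked small-subunit protein, and the highest 0.31 for Rps28. Of the 311 probe sets, which include the 17, 30.9% had a standard deviation no higher than that of Rps28. Rps4x had 3594.5, 3344.9 and 3267.6 in rejecting grafts at day 7, 3447.7, 3206.3 and 3481.9 in tolerizing grafts and 3617.1, 3007.3 and 3302.6 in isografts. It had 3452.4, 3203.3 and 2904.4 in tolerizing grafts at day 70 and 2767.7 and 3420.3 in isografts. All 5 groups overlapped for Rps4x.

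Rplp0 encodes the stalk protein of the large subunit, which holds the P1 and P2 proteins and helps recruit elongation factors. It read 5502.8, 4243.5 and 3862.5 in rejecting grafts at day 7, 4370.1, 3972.3 and 4075.1 in tolerizing grafts and 4696.5, 3946.0 and 3936.2 in isografts. At day 70 it read 3649.1, 3559.1 and 3217.1 in tolerizing grafts and 3511.1 and 4107.9 in isografts. The 3 groups of day 7 overlapped, and the tolerizing grafts of day 70 lay below those of day 7. The difference between rejecting grafts and isografts at day 7 was a log2 of 0.10 ± 0.23 (SE), with an adjusted p of 0.825 (limma, Benjamini-Hochberg over all 10395 probe sets tested).

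Bright members also tended to be high or low on the same arrays. The median correlation between 2 of them over the 14 arrays was 0.59 across 136 pairs, and 112 pairs were above 0. For deviations from the group means the median was 0.53. These genes share the libraries and the scaling of each array, so the correlations are a description. Rplp0 followed the mean of the other 16 most closely (r = 0.91 over 14 arrays). Rpl37a, a small zinc-binding protein of the large subunit, ran against it (r = -0.60).

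Expressed as the mean deviation of the 17 genes from their own averages, rejecting grafts at day 7 stood at 0.16 ± 0.12 (SD, n = 3), tolerizing grafts at 0.03 ± 0.07 (n = 3) and isografts at 0.01 ± 0.12 (n = 3) on the log2 scale. Tolerizing grafts at day 70 stood at -0.12 ± 0.08 (n = 3) and isografts at -0.10 ± 0.22 (n = 2). Single arrays spread as far as the groups. Replicate 1 of the rejecting grafts stood at 0.29 and held the highest value of 10 of the 17 genes. Replicate 1 of the day 70 isografts stood at -0.25 and held the lowest value of 9. The median deviation of all bright probe sets was 0.07 on that rejecting array and -0.14 on that isograft array, against medians of 0.32 and -0.24 for the 17 genes.

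**Figure D2:**
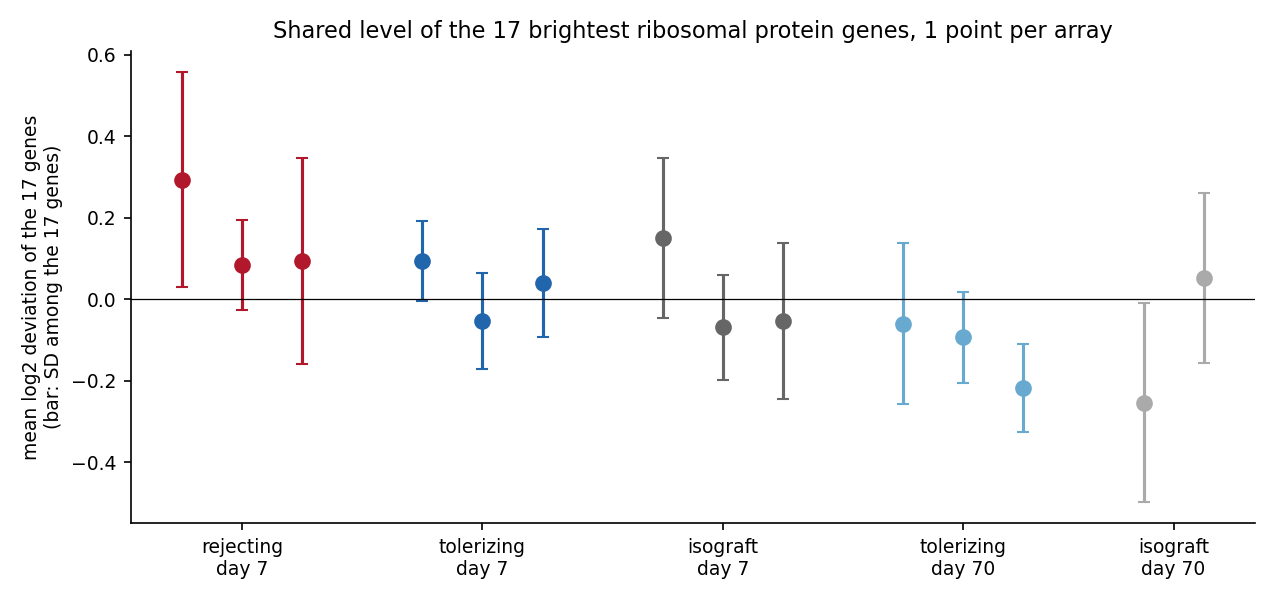
Mean log2 deviation of the 17 bright ribosomal protein genes from their own averages, 1 point per array; bars are the standard deviation among the 17 genes on that array, not an error of the mean. Rejecting replicate 1 (0.29) is the highest array and day 70 isograft replicate 1 (-0.25) the lowest, and the groups of day 7 overlap.

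The first comparison asks how acute rejection changed these genes against isografts of the same day. In rejecting allografts 1 of the 33 tested genes was higher and 1 lower, 2 in all (6.06%), while 17.7% of all 10395 probe sets tested were called at an adjusted p under 0.05 (8.54% higher and 9.18% lower). Rpl13a was the higher one and Rpl22 the lower one, with values given below. None of the 17 bright genes was called, against 46% of all 311 probe sets of that brightness. The median difference of the 33 genes was a log2 of 0.09, against 0.04 for all probe sets.

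Rpl13a encodes a large-subunit protein that, in human and mouse myeloid cells treated with interferon gamma, is also released from the ribosome and joins the GAIT complex, which silences the translation of inflammatory mRNAs. It read 250.7, 243.4 and 431.5 in rejecting grafts, against 96.3, 76.0 and 130.3 in isografts of day 7. All rejecting grafts lay above all isografts. The difference was a log2 of 1.60 ± 0.28 (SE), or 3.02-fold, with an adjusted p of 0.0018 (limma). Without each replicate in turn and under the other settings tried it stayed between 1.33 and 1.80, with adjusted p-values up to 0.0249.

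Rpl22 encodes an RNA-binding protein of the large subunit that is not needed for translation in general. Mice without it are viable but fail to make normal numbers of alpha-beta T cells. Its brightest probe set read 63.2, 72.4 and 62.0 in rejecting grafts, against 187.6, 145.4 and 249.5 in isografts. Every rejecting graft lay below every isograft. The difference was a log2 of -1.53 ± 0.21 (SE), 2.88-fold lower, with an adjusted p of 0.000524 (limma).

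The second probe set of Rpl22 went against the first in this comparison. It read 92.3, 76.5 and 60.9 in rejecting grafts, against 49.3, 85.5 and 45.8 in isografts, with overlap between the groups and a log2 difference of 0.39 ± 0.51 (SE; adjusted p = 0.683, limma). When the probe sets of a gene were averaged, Rpl22 was no longer called (log2 -0.57, adjusted p = 0.196, limma). The call for Rpl22 thus rests on 1 of its 2 probe sets. Rpl13a has 1 probe set that names it alone. None of the 11 further probe sets of these genes that were tested was called in this comparison, and the smallest adjusted p among them was the 0.172 of Rpl19 (limma).

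**Figure D3:**
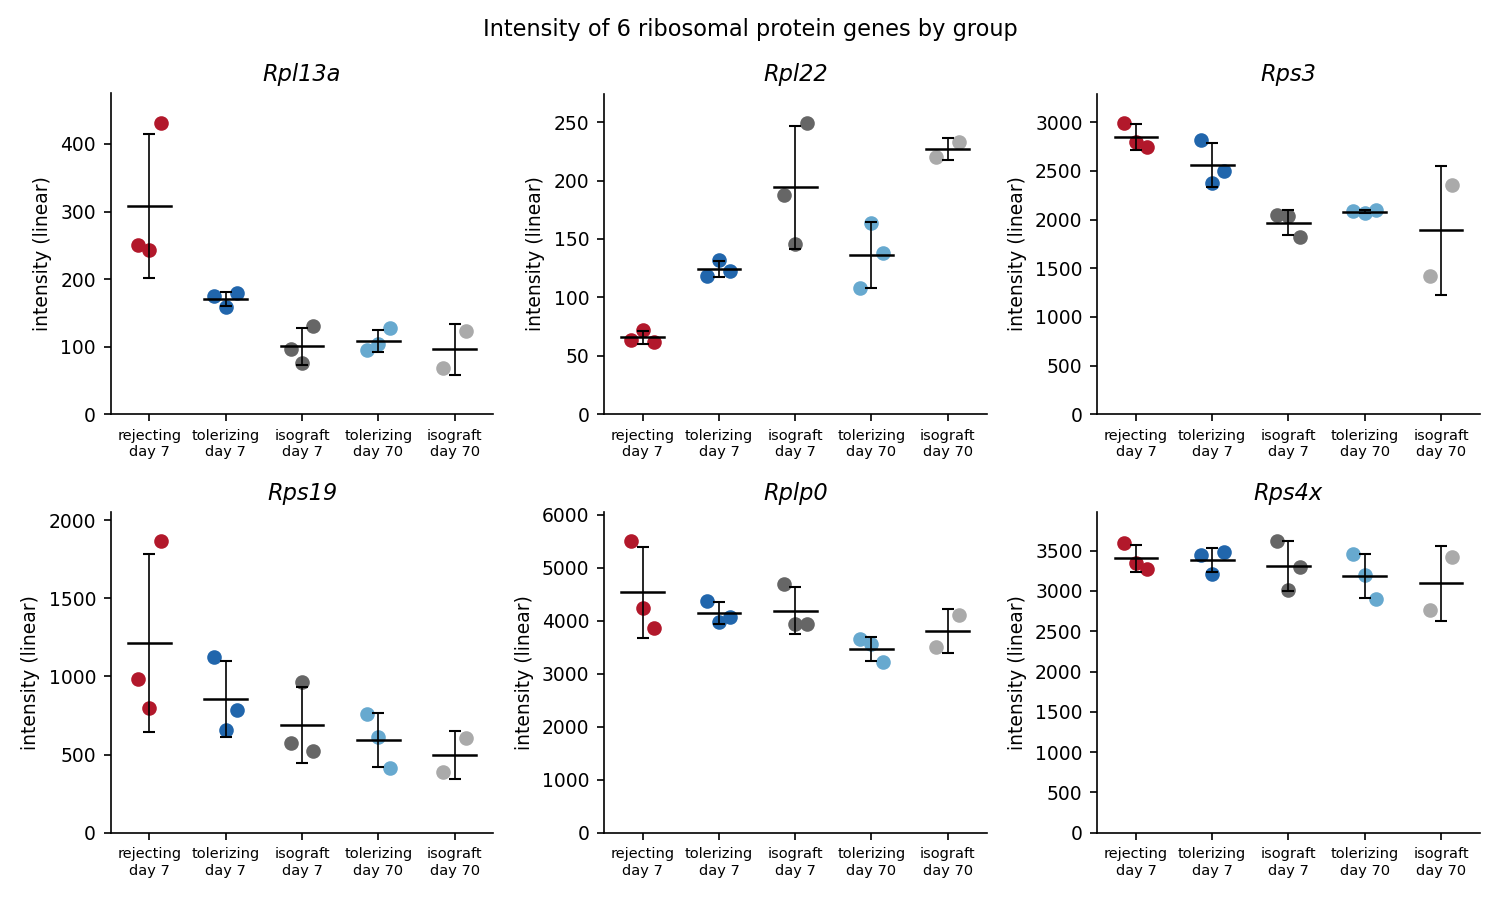
Intensity (linear scale, starting at 0) of 6 ribosomal protein genes by group; points are arrays, long lines the group mean and bars the standard deviation (n = 3, and n = 2 for isografts at day 70). Rpl13a is highest and Rpl22 lowest in rejecting grafts, while the day 7 groups of Rplp0 and Rps4x overlap.

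A few other genes leaned the same way without passing the test. Rps3, a small-subunit protein at the mRNA entry channel that also takes part in DNA repair and NF-kappaB binding, was singled out after its values were seen. It read 2995.2, 2792.2 and 2749.1 in rejecting grafts, against 2047.0, 2041.2 and 1819.5 in isografts. The groups did not overlap, and the difference was a log2 of 0.53 ± 0.21 (SE; adjusted p = 0.0997, limma). With array weights, which give less weight to arrays that deviate more, Rps3 was called. In that fit 54.3% of all bright probe sets were called, against 46% in the main fit.

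Rps19, a small-subunit protein needed to process the small ribosomal RNA and mutated in human Diamond-Blackfan anaemia, read 984.1, 797.8 and 1864.7 in rejecting grafts, against 576.6, 965.4 and 520.2 in isografts. The groups overlapped (log2 0.78 ± 0.35 SE, adjusted p = 0.158, limma). Rpl38, a large-subunit protein required in mouse embryos for the translation of Hox mRNAs, read 33.3, 24.3 and 17 in rejecting grafts, against 8.5, 18.2 and 10.7 in isografts. Its log2 difference of 0.88 ± 0.32 (SE) had an adjusted p of 0.0761 (limma). It was called in limma fits without rejecting replicate 3 (log2 1.13, adjusted p = 0.0296) and without isograft replicate 2 (log2 1.12, adjusted p = 0.0458). It was also called by limma after quantile normalization (adjusted p = 0.0474), with the run of array accessions as a block (adjusted p = 0.0462) and with array weights (adjusted p = 0.0173). Of all bright probe sets, 38.9% to 54.3% were called in the fits that called Rpl38, against 46% in the main fit. The accessions fall into 2 runs, the first with replicate 3 of the groups of 3 and 1 day 70 isograft. What the runs mark is unknown, and the main fit does not include them. The 18S control (3′ probe set) read 30.3 to 83.4 in the first run and 120.4 to 254.6 in the second, without overlap. Between arrays of different groups, deviations from the group means correlated at a median of 0.09 within a run and -0.10 across runs. All values of Rpl38 lie close to the floor.

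At the low end stood Rpl37a and Rps13. Rpl37a read 803.8, 1157.4 and 974.9 in rejecting grafts, against 1357.2, 1203.0 and 1285.6 in isografts. These did not overlap, at a log2 difference of -0.40 ± 0.20 (SE; adjusted p = 0.199, limma). Rps13, a small-subunit protein on a dim probe set, differed by a log2 of -0.33 ± 0.42 (SE; adjusted p = 0.666, limma). Rpsa, the small-subunit protein also known as the laminin receptor precursor, had 1005.1, 1009.1 and 1245.4 in rejecting grafts, against 987.2, 804.2 and 882.9 in isografts. Its groups did not overlap, at a log2 of 0.28 ± 0.21 (SE; adjusted p = 0.419, limma).

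Counting without a test, 9 of the 33 genes (27.3%) had groups that did not overlap, close to the 30% of all probe sets. The bright genes sat in a narrow band. Of the 17, 16 lay within a log2 of 0.5 of no difference, against 37.6% of all 311 bright probe sets, and their differences had a standard deviation of 0.21, against 1.28. The exception was Rps3. Positive differences were seen in 15 of 17 (14 with median scaling, 13 without rejecting replicate 1 and 12 with array weights), with medians of 0.11 for the 8 small-subunit and 0.16 for the 9 large-subunit genes. The 95% intervals of all 17 lay between -0.83 and 0.98, so a log2 difference of 1 in either direction lies outside each of them, and 16 of them held 0. Under all alternatives tried, 0 of the 17 were called except Rps3 with array weights, and at an unadjusted p under 0.05 limma listed 5 of the 33 genes, with Rps3 the bright one, against 29.2% of all probe sets.

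**Figure D4:**
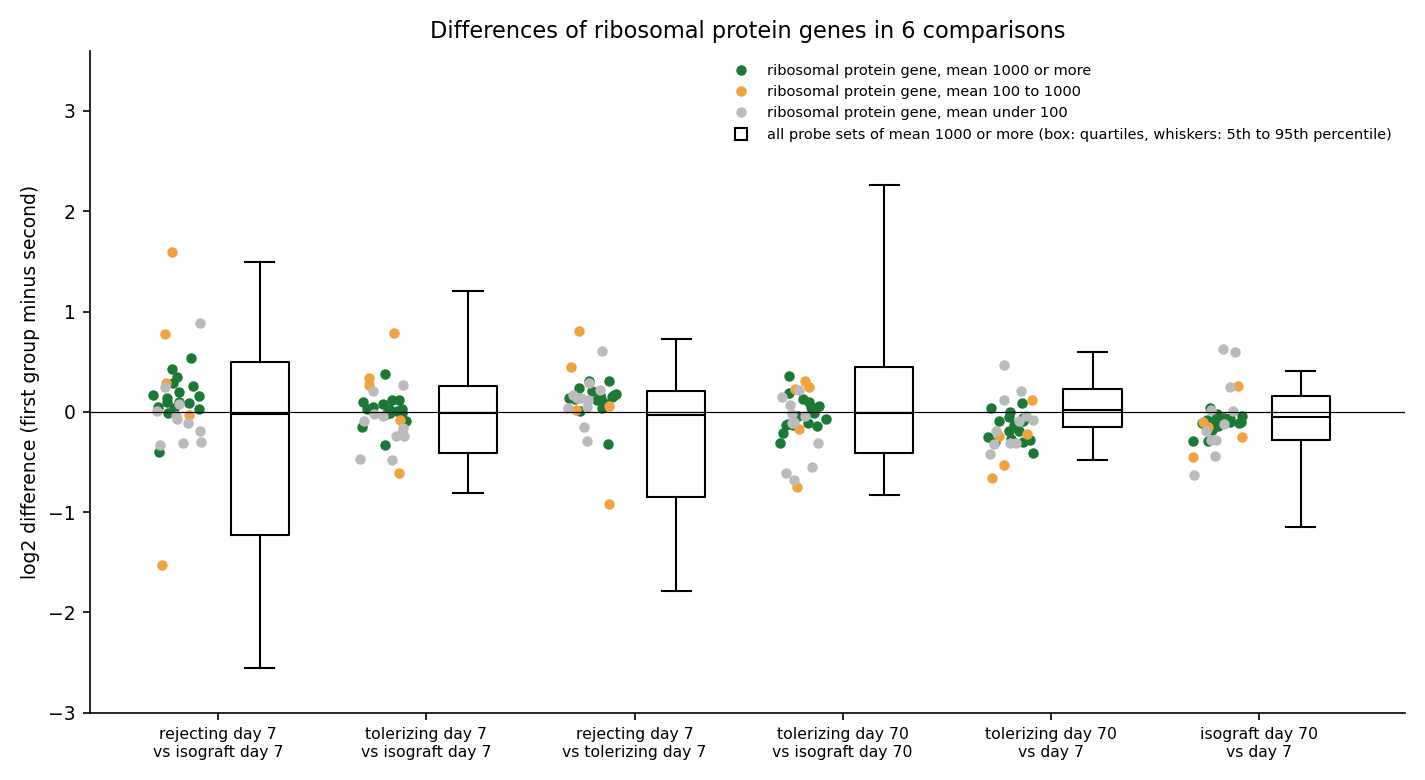
Log2 differences of the ribosomal protein genes (points, coloured by mean intensity) in 6 comparisons, beside all 311 probe sets of mean 1000 or more (boxes for the quartiles, whiskers from the 5th to the 95th percentile). In rejecting grafts against isografts at day 7 the bright genes run from -0.40 to 0.53, while the whiskers run from -2.55 to 1.49.

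The cell makeup of the grafts differed widely in the same comparison. All 10 leukocyte markers were higher, with summed intensities of 6968 to 11100 in rejecting grafts against 2274 to 2571 in isografts, as were 13 of 16 macrophage, 13 of 15 T and NK cell and 15 of 19 cell cycle genes. Of 18 cardiomyocyte genes, 15 were lower, with sums of 8193 to 37650 against 51890 to 82240 in isografts, as were 7 of 11 fibroblast and 5 of 10 endothelial genes. None of the 6 B cell genes was called. No cardiomyocyte marker was at the floor on all arrays of a group. In such bulk RNA a change in the number of cells of a type and a change in RNA per cell cannot be told apart, and the part of these shifts in the values of Rpl13a and Rpl22 was not tested.

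Other parts of the translation machinery were read in the same fit, from lists chosen by function or, for the mitochondrial genes, by symbol. Mitochondrial ribosomes translate the few mRNAs of the mitochondrial genome. The list takes every gene with a symbol of Mrpl or Mrps plus a number, which does not show that each protein is part of that ribosome. Of 60 tested genes, 13 were lower and 0 higher in rejecting grafts (median log2 -0.45), where 9.18% of all probe sets were lower. The call with the smallest p was Mrps31, with 112.9, 117.9 and 119.9 in rejecting grafts, against 271.6, 234.5 and 172.8 in isografts (log2 -0.93 ± 0.19 SE, adjusted p = 0.00503, limma). Mrpl12, which also binds mitochondrial RNA polymerase, differed by a log2 of -0.86, Mrpl51 by -0.75 and Mrpl23 by -0.77.

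This count depended on single hearts. It was 25 without rejecting replicate 3, 4 without rejecting replicate 2, and 3 without rejecting replicate 1 or isograft replicate 1. It was 6 without isograft replicate 2 and 10 without isograft replicate 3. No mitochondrial gene was higher in any of these fits, and their median remained between -0.72 and -0.35. Of all 311 bright probe sets, 46% were called in the main fit. The share was 47.6% without rejecting replicate 3 and 36% to 42.8% without each other heart compared. Bright probe sets are no matched background here, since the mitochondrial genes named above are dimmer. Of all 10395 probe sets tested, 17.7% were called in the main fit. Cardiomyocyte markers, whose values are given above, fell in the same hearts, and their part in the mitochondrial values was not tested.

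Of 48 genes for ribosome biogenesis, the nucleolar assembly of new ribosomes, 6 were higher and 0 lower (median log2 0.35), where 8.54% of all probe sets were higher. Fbl, the methyltransferase fibrillarin of box C/D particles, had 351.4, 327.8 and 356.5 in rejecting grafts, against 192.7, 157.5 and 163.5 in isografts. Its groups were far apart for their spread (log2 1.02 ± 0.17 SE, adjusted p = 0.00164, limma). Gar1 (log2 0.82) and Nhp2 (1.11), which belong to the H/ACA particles that guide pseudouridylation, were also higher. So was Myc (1.28), a transcription factor that drives ribosome production. Myc read 22.7, 34.1 and 37.4 in rejecting grafts, against 8.9, 16.7 and 9.9 in isografts. Its isograft values under the floor of 11 were raised to it, so the size of its difference depends on the floor. The higher genes numbered 4 after quantile normalization, 3 after median scaling and 9 with the run of array accessions as a block. Leaving out a heart left 2 (without isograft replicate 3) to 5, with 3 without any one of the rejecting replicates or isograft replicate 1, and without rejecting replicate 3 there were also 2 lower. With the beta-actin ratio of the 3′ to the 5′ probe set as a covariate, and in the second accession run alone, 1 was higher and 1 lower. Of all bright probe sets, 41.2% were called with that covariate and 44.7% in the second run. The share was 43.1% to 47.3% after either scaling and with the run as a block. Shares without single hearts are given above. All of these are shares of probe sets brighter than Fbl, Gar1, Nhp2 and Myc, so they are no matched background. Cell cycle and leukocyte genes rose in the same hearts, and their part in these values was not tested.

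Translation factors were called about as often as the rest of the array. Of 31 initiation factor genes 2 were higher and 3 lower, where 17.7% of all probe sets were called. With 1 heart left out 2 were higher each time, and the lower ones numbered 1 (without rejecting replicate 1 or 2) to 4 (without rejecting replicate 3). The shares of bright probe sets called in those fits are given with the mitochondrial genes. Eif6, which keeps new large subunits from joining small ones too early, had 221.4, 265.8 and 223.4 in rejecting grafts, against 103.1, 106.8 and 113.2 in isografts (log2 1.13 ± 0.18 SE, adjusted p = 0.000994, limma). Pabpc1, the poly(A)-binding protein and a TOP mRNA, had 1448.5, 1256.8 and 1240.9, against 686.7, 599.7 and 700.1 in isografts (log2 0.99 ± 0.20 SE, adjusted p = 0.00416, limma). Eif2b4, a subunit of the exchange factor of eIF2, and Eif4a2, an RNA helicase, were lower, at log2 differences of -0.76 and -1.08.

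Of 5 elongation factor genes, 1 was lower. Eef1a2, the form of elongation factor 1A used in muscle and neurons, had 204.6, 470.5 and 920.3 in rejecting grafts, against 1545.7, 2251.0 and 3691.4 in isografts. The groups did not overlap, and Eef1a2 was 5.25-fold lower (log2 -2.39 ± 0.50 SE, adjusted p = 0.00495, limma). Eef1a1, the form of most other cells and itself a TOP mRNA, had 7484.9, 5622.3 and 4607.4 against 6957.7, 4439.8 and 4457.9 in isografts, with overlap (log2 0.16 ± 0.29 SE, adjusted p = 0.770, limma). Of 16 TOP mRNAs outside the ribosomal proteins, some of them also in the factor lists, 1 was higher, Pabpc1, and the median was a log2 of 0.18.

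**Figure D5:**
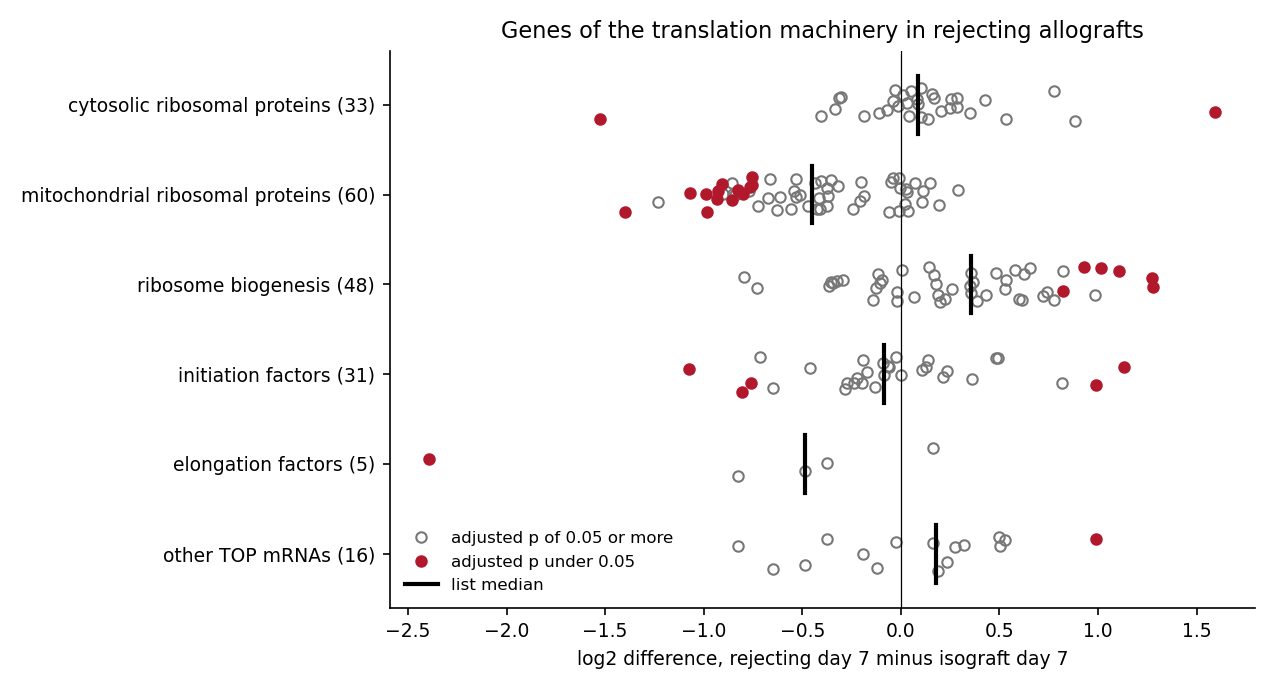
Log2 differences between rejecting grafts and isografts at day 7 for each tested gene of 6 lists of the translation machinery; filled points have an adjusted p under 0.05 (limma) and thick lines are list medians. The median is 0.09 for the cytosolic ribosomal proteins, -0.45 for the mitochondrial ones and 0.35 for ribosome biogenesis.

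The next comparison asks what remains when costimulation was blocked. In tolerizing allografts at day 7 none of the 33 genes was called against isografts (limma, with 2 at an unadjusted p under 0.05, against 13% of all probe sets), where 1.69% of all probe sets were called. The isografts are the hearts already used in the comparison with rejecting grafts, so the 2 comparisons are not independent. Rpl13a stood at the upper end and Rpl22 at the lower. Rpl13a had 174.5, 158.1 and 178.9 in tolerizing grafts, all above the 96.3, 76.0 and 130.3 of isografts (log2 0.79 ± 0.28 SE, adjusted p = 0.218, limma). With the accession run as a block it was called (adjusted p = 0.0442).

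Rpl22 had 118.5, 131.8 and 123.0 in tolerizing grafts, all below the 187.6, 145.4 and 249.5 of isografts (log2 -0.61 ± 0.21 SE, adjusted p = 0.217, limma). Its second probe set differed in the same direction (log2 -0.86 ± 0.51 SE, adjusted p = 0.535, limma). The second-highest gene was Rps3, with 2815.1, 2377.9 and 2499.0 in tolerizing grafts, all above the isografts (log2 0.38 ± 0.21 SE, adjusted p = 0.491, limma). Rps19 followed (log2 0.33, adjusted p = 0.798, limma), and the other low genes were the dim Rps14 (log2 -0.48) and Rps13 (-0.47). In all, 7 genes (21.2%) had groups that did not overlap, against 20.4% of all probe sets.

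The 17 bright genes had a median difference of 0.03 (-0.03 without isograft replicate 2 and 0.07 without isograft replicate 1), ranged from -0.33 to 0.38 and were none of them called, against 6.75% of all bright probe sets. All 17 intervals lay within a log2 of 1 of no difference. Rplp0 differed by -0.01 ± 0.23, Rps4x by 0.03 ± 0.20 and Rpsa by 0.27 ± 0.21 (SE). Over the 33 genes the median was -0.01, against -0.02 for all probe sets, and it changed sign to 0.04 after quantile normalization. In these hearts leukocyte marker sums were 4147 to 7437 in tolerizing grafts against 2274 to 2571 in isografts, and cardiomyocyte sums were 38730 to 58470 against 51890 to 82240. The beta-actin ratio, a measure of RNA integrity, was 1.094 to 1.372 in tolerizing grafts against 1.52 to 1.982 in isografts, without overlap. With this ratio as a covariate 0.322% of all bright probe sets were called, and the median of the 17 genes was 0.09.

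Rejecting and tolerizing grafts share donor and recipient strain and differ in the antibody treatment. None of the 33 genes was called between them (limma, with 2 at an unadjusted p under 0.05, against 15.1% of all probe sets), where 1.41% of all probe sets were called. Rpl22 stood nearest to the threshold. Its 63.2, 72.4 and 62.0 in rejecting grafts lay below the 118.5, 131.8 and 123.0 of tolerizing grafts (log2 -0.92 ± 0.21 SE, adjusted p = 0.0525, limma). It passed without rejecting replicate 3 (log2 -0.88, adjusted p = 0.0398), after quantile normalization (adjusted p = 0.0422), with a floor at the 50th percentile (adjusted p = 0.0395), with array weights (adjusted p = 0.00697) and with the accession run as a block (adjusted p = 0.0465). Of all bright probe sets, 28.3% were called without rejecting replicate 3 and 37.6% with array weights. In the main fit 3.22% were called, and 3.22% to 6.11% in the other settings named.

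Rpl13a had 250.7, 243.4 and 431.5 in rejecting grafts, all above the 174.5, 158.1 and 178.9 of tolerizing grafts (log2 0.81 ± 0.28 SE, adjusted p = 0.175, limma). With the accession run as a block it was called (adjusted p = 0.0464). Both genes lay between rejecting grafts and isografts in every tolerizing heart of day 7, on the brightest probe set. On the second Rpl22 probe set the difference had the opposite sign (log2 1.25 ± 0.51 SE, adjusted p = 0.261, limma). The genes nearest to them were Rpl38 (log2 0.61) and Rps19 (0.44) above, and Rpl37a (-0.32) and the dim Rps29 (-0.29) below, with adjusted p-values of 0.406 to 0.685 (limma).

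Differences were positive in 29 of the 33 genes, in 25 after quantile normalization and in 24 after median scaling, with a median of 0.14 against 0.06 for all probe sets. Of the bright genes 16 of 17 were positive, within -0.32 to 0.31. They were 14 after either scaling, 13 with probe sets averaged and 11 without rejecting replicate 1. Rplp0 differed by 0.12 ± 0.23 and Rps4x by 0.01 ± 0.20 (SE). Groups that did not overlap were seen in 5 genes (15.2%), against 16% of all probe sets. Beside Rpl13a and Rpl22 these were Rpl10a, Rpl6 and Rpl7, all higher in rejecting grafts. Of the other lists of the translation machinery 1 gene was called, Mrps31, lower in rejecting grafts (log2 -0.88, adjusted p = 0.0437, limma). Among the mitochondrial ribosomal proteins 7 genes were lower without rejecting replicate 3 and 0 when any other single heart of these groups was left out. The count was also 0 with median scaling, within the second accession run, and when the beta-actin ratio entered the fit. Of all 311 bright probe sets, 3.22% were called in the main fit of this comparison. The share was 28.3% without rejecting replicate 3 and 0.643% to 1.29% without each other heart compared. Mrps31 is dimmer than this class, which is no matched background for it.

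Markers of other cells differed in the same hearts. All 18 cardiomyocyte genes had negative differences in rejecting grafts, 2 of them called (median log2 -1.79), with sums of 8193 to 37650 against 38730 to 58470 in tolerizing grafts. Of 11 fibroblast genes 6 were called lower (median log2 -1.74), with sums of 3416 to 11240 against 12500 to 14060. All 15 T and NK cell genes had positive differences, none of them called (median log2 1.09, limma), with sums of 1314 to 5930 against 870.9 to 1653. The part of these shifts in the ribosomal protein values was not tested.

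At day 70 the comparison of tolerizing grafts with isografts rests on 3 and 2 hearts. None of the 33 genes was called (limma, with 1 at an unadjusted p under 0.05, against 15.4% of all probe sets), where 3.2% of all probe sets were. That gene was again Rpl22, with 107.7, 164.0 and 138.2 in tolerizing grafts, below the 220.3 and 233.3 of isografts (log2 -0.75 ± 0.24 SE, adjusted p = 0.122, limma). On the second Rpl22 probe set the difference was a log2 of -0.11 ± 0.57 (SE; adjusted p = 0.965, limma). Rpl13a had 95.6, 103.6 and 127.1 in tolerizing grafts, against 68.8 and 122.9 in isografts, with overlap (log2 0.23 ± 0.31 SE, adjusted p = 0.790, limma).

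The highest difference was that of Rps24 (log2 0.35 ± 0.32 SE, adjusted p = 0.663, limma). Its probe set shares a source sequence with one of Rpl7 and reads far above the second Rps24 probe set, so its gene name is uncertain. Rpsa followed at 0.30 and Rps19 at 0.25, while Rpl38 (-0.68) and Rps13 (-0.61), both dim, were low. Rplp0 differed by -0.13 and Rps4x by 0.05. Bright genes ranged from -0.31 to 0.35 with a median of -0.04, and 10.3% of all bright probe sets were called. The direction of this median depended on 1 heart. It was 0.17 without isograft replicate 2, with 11 of 17 positive, and -0.24 without isograft replicate 1, with 3 positive, and in the second accession run alone it was 0.21, with 14 positive. Of the 17 intervals, 15 lay within a log2 of 1 of no difference. Only 3 of the 33 genes (9.09%) had groups that did not overlap, against 33% of all probe sets. In the same hearts leukocyte marker sums were 4454 to 7643 in tolerizing grafts, against 1207 to 2053 in isografts, while cardiomyocyte sums were 54380 to 74950 against 63770 to 70480.

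Over time, tolerizing grafts at day 70 were set against those of day 7. None of the 33 genes was called (limma, with 2 at an unadjusted p under 0.05, against 6.2% of all probe sets), where 0.0385% of all probe sets were. Rpl13a had 95.6, 103.6 and 127.1 at day 70, all below the 174.5, 158.1 and 178.9 of day 7 (log2 -0.66 ± 0.28 SE, adjusted p = 0.772, limma). Rps19 (log2 -0.53 ± 0.35 SE) and the dim Rpl32 (-0.42 ± 0.43 SE) followed at the low end, with adjusted p-values of 0.932 and 0.987 (limma). Rpl10a, a large-subunit protein at the L1 stalk, had 1037.7, 1157.7 and 1150.7 at day 70, all below the 1469.1, 1480.3 and 1487.5 of day 7 (log2 -0.41 ± 0.18 SE, adjusted p = 0.792, limma). Rpl22 had 107.7, 164.0 and 138.2 against 118.5, 131.8 and 123.0 at day 7, with overlap (log2 0.12 ± 0.21 SE, adjusted p = 1.0, limma).

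Small differences in one direction were common here. In 11 of the 33 genes (33.3%) every heart of day 70 lay below every heart of day 7, against 7.94% of all probe sets. Beside Rpl13a and Rpl10a these were Rps3, Rps7, Rplp0, Rps3a1, Rpl6, Rpl7, Rpl7a, Rps18 and Rpsa. Rps18, a small-subunit head protein, had 2561.3, 2700.3 and 2408.4 at day 70, against 3187.7, 2987.5 and 3283.8 at day 7. The dim Rpl39 was the 1 gene above (log2 0.47), and the dim Rpl35a (0.20) and Rps13 (0.12) came next at the high end. Rplp0 differed by -0.25, Rpsa by -0.22 and Rps4x by -0.09. Differences were negative in 26 of 33 genes, in 28 after quantile normalization and in 24 after median scaling, with a median of -0.19 against -0.04 for all probe sets. The bright genes ran from -0.41 to 0.09, and their intervals lay within a log2 of 1. Differences were negative in all 19 tested cell cycle genes, none of them called (limma), with sums of 1313 to 1786 at day 70 against 1886 to 2571 at day 7. Fibroblast genes were negative in 9 of 11 (median log2 -0.77), with sums of 6222 to 7626 at day 70 against 12500 to 14060 at day 7, and cardiomyocyte genes were positive in 17 of 18 (median 0.41), with sums of 54380 to 74950 against 38730 to 58470. None of these was called (limma), and their part in the ribosomal protein values was not tested.

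Isografts at day 70 (n = 2) were set against those of day 7 (n = 3). None of the 33 genes was called by limma, none had an unadjusted p under 0.05, against 5.38% of all probe sets, and 0% of all probe sets were called. Differences were again negative in 26 of 33 genes, with a median of -0.10 against 0.02 for all probe sets, and 16 of the 17 bright genes were negative, within -0.29 to 0.04. The 2 hearts of day 70 disagreed. Rps3 had 1418.9 and 2358.7 at day 70, against 2047.0, 2041.2 and 1819.5 at day 7, and Rps7, a small-subunit protein that can bind Mdm2, had 1859.6 and 3188.8 against 2906.1, 2205.8 and 2654.6.

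Accordingly 1 gene (3.03%), the dim Rps14, had groups that did not overlap, against 19.8% of all probe sets. The ends of the range were held by Rpl38 (log2 0.63) and Rpl35a (0.60) and by Rps14 (-0.63), Rps19 (-0.45) and Rps15 (-0.44), with adjusted p-values of 0.932 to 0.983 (limma). Rpl22 came next at the high end (0.26), while Rpl13a differed by -0.10, Rplp0 by -0.14, Rpsa by -0.25 and Rps4x by -0.10. The median of the 33 genes was -0.21 without isograft replicate 2 of day 70 and 0.00 without isograft replicate 1 of day 70. In that last fit 10 of the 17 bright genes were positive, with a median of 0.05, so their direction depended on 1 heart. In these hearts 15 of 16 macrophage genes (median log2 -0.92) and all 11 fibroblast genes (median -0.41) had negative differences, none of them called (limma). Macrophage sums were 2406 to 5356 at day 70 against 7095 to 8548 at day 7, and fibroblast sums 9022 to 10440 against 11730 to 17730. The part of these shifts was not tested.

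The test of whether tolerizing grafts and isografts changed differently over time called none of the 33 genes and 0% of all probe sets (limma interaction, 0 of the 33 at an unadjusted p under 0.05, against 3.93% of all probe sets). At its low end stood the dim Rpl38 (log2 -0.95 ± 0.48 SE), Rpl13a (-0.56) and the dim Rpl35a (-0.39), and at its high end the dim Rps14 (0.54 ± 0.42 SE) and Rpl39 (0.46) and the bright Rps24 (0.32). Rpl22 stood at -0.14, Rplp0 at -0.12, Rpsa at 0.04 and Rps4x at 0.01. Of the 17 bright genes, 15 had intervals within a log2 of 1, and the highest bound was 1.31.

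The paralogs and the dim genes gave no call in any comparison. Rpl7l1, a paralog of Rpl7 with a role in large-subunit assembly, read 21.7 to 42.8 on all arrays and differed by at most a log2 of 0.25 in the comparisons of 2 groups. Rpl39l, which in mice serves the ribosomes of male germ cells, read 2.1 to 19.5, around the floor. Across the 11 tested dim genes the differences between rejecting grafts and isografts ran from -0.33 to 0.88 with a median of -0.07, and the smallest adjusted p was the 0.0761 of Rpl38 (limma). The remaining gene of the middle class, Rps27, had 286.9, 309.5 and 147.4 in rejecting grafts, against 266.7, 266.2 and 195.8 in isografts, with overlap.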

How the data were processed

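The authors deposited signal intensity values for 12488 probe sets on 14 MG-U74Av2 arrays, on a linear scale. Of the authors' software and scaling nothing is stated (not given in the sources used here). Leaving out 66 control probe sets, values under the floor of 11 were set to it and log2 was taken. Tested were the 10395 probe sets with 3 or more arrays above that floor, in 1 fit of all 5 groups with limma 3.58.1 in R 4.3.3 (intensity trend; 9 residual and 4.45 prior degrees of freedom), in 6 comparisons and 1 interaction. Two-sided p-values were Benjamini-Hochberg adjusted within each comparison across all of these, and called under 0.05. The number of arrays limits the precision.

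Gene symbols are those of GEO's platform table, brought up to date with RefSeq IDs. Of the probe sets, 10833 name 1 gene, 396 several and 1193 none, and 10817 IDs were in the RefSeq table. The members and gene lists were chosen with earlier results of these data known. Named were all called members, the 3 highest and 3 lowest of each comparison, a fixed set (Rplp0, Rpsa, Rps4x, Rpl13a, Rpl22 and paralogs) and up to 4 called genes per other list; any further gene, such as Rps27, Rps18, Rps7, Rpl10a, Rps3 at day 70 or Eef1a1, was chosen after its values were seen.

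On simulated data with 200 of 10395 probe sets changed, the test for rejecting grafts against isografts recovered 44% of those changed by a log2 of 1 and 95% of those changed by 2, with 14 false calls. For a log2 of 1 the recovery was 31% for isografts at day 70 against day 7, 35% for tolerizing grafts against isografts at day 70 and 42% to 56% in the other comparisons. Same-numbered arrays of tolerizing grafts at day 70 and day 7 correlated at 0.34, 0.25 and 0.27 in their deviations from the group means. For rejecting and tolerizing grafts of day 7 these correlations were 0.22, 0.0052 and 0.25. Replicate 3 of the groups of 3 lies in the first accession run, so replicate number and run overlap. The labels name no pairs, and the numbers are read as names. With the replicate number as a block, 0 of the 33 members were called for tolerizing grafts at day 70 against day 7. Alternatives covered scaling, floor, pseudocount, filter, trend, array weights, blocks for replicate number and accession run, a beta-actin covariate, probe set averaging and leaving out each replicate. The estimate of the array weights stopped before its convergence tolerance was reached.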

Additional observations from a re-analysis of the deposited data

How the results depend on the processing

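Of 286 recomputed counts and medians, 278 were rated as unchanged, and the 8 others were counts of called genes. A median was rated by the size of its shift alone, not by its sign. For rejecting grafts against isografts the count of 2 became 4 with array weights (Rpl13a, Rpl38 and Rps3 higher, Rpl22 lower), 3 after quantile normalization and with the accession run as a block (Rpl38 added in both), and 1 when probe sets were averaged, and ran from 2 to 3 with 1 heart left out. Of all bright probe sets, 46% were called there in the main fit and 54.3% with array weights. The share was 45.3% to 47.3% in the other settings named and 36% to 47.6% with 1 heart left out. Rpl13a, Rpl22 and Rpl38 are dimmer than that class. For tolerizing grafts against isografts at day 7 the count of 0 became 1 with the accession run as a block. The bright share there was 7.07%, against 6.75% in the main fit. For rejecting against tolerizing grafts the count of 0 became 1 after quantile normalization, with the floor at the 50th percentile and with array weights. It became 2 with the run as a block, and ran from 0 to 1 with 1 heart left out. The bright share was 3.22% in the main fit and with the run as a block, and 4.82% after quantile normalization. It was 6.11% with the higher floor, 37.6% with array weights and 0.643% to 28.3% with 1 heart left out. In the comparisons at day 70 and over time, and in the interaction, the count of called members was 0 under every alternative. The cause of these changes was not tested. Medians of all 33 genes moved by less than the spread between replicates (a log2 of 0.20), with a changed sign in 11 of 130 recomputations. That spread is wider than every median rated, the largest in size being -0.19. A median that vanished would still have been rated as unchanged. With the replicate number as a block the counts were 2 for rejecting grafts against isografts and 0 in all other comparisons, so it changed no member count. In the comparisons other than tolerizing grafts over time, same-numbered arrays correlated at -0.18 to 0.25 in their deviations from the group means. The numbers are read as names, not pairs, in all comparisons. A wider set of 60 tested genes, added after the data were seen and including probe sets that name several genes, gave 2 calls in rejecting grafts (median 0.16). Dim probe sets near the floor limit what can be seen for 11 of the 33 genes.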

Other observations

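With the probe sets that name a ribosomal protein gene together with other genes, 60 genes could be tested, a set that includes the 33 genes described above. Of these, 51 had negative differences in tolerizing grafts at day 70 against day 7 (median log2 -0.16) and 44 had negative differences in isografts at day 70 against day 7 (median -0.10), with 0 called in either comparison (limma). Over the 33 genes alone the isograft median was 0.00 without replicate 1 of day 70. In rejecting against tolerizing grafts at day 7, 54 of the 60 had positive differences (median 0.14), with 0 called. These probe sets can read pseudogene copies, of which ribosomal protein genes have many, so their values are not given gene by gene.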
